A study of Mus musculus with 5 samples.

Results

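A set of 41 genes of striated muscle was followed through the chromatin of neurons, a cell type in which their products are not used to build sarcomeres. The genes were chosen by symbol as the 4 myogenic regulators, 29 contractile genes (7 myosin heavy chains, 6 myosin light chains, 2 actins, 8 troponins and 6 genes of titin, the M band and myosin binding) and 8 other genes of muscle (desmin, creatine kinase, myoglobin, 3 genes of the calcium store and 2 natriuretic peptides). All 41 were found among the 21031 protein-coding genes used for comparison, and 37 had a region in at least 1 of the deposited lists.

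The nuclei came from the striatum of C57BL/6 mice aged 8 weeks and were sorted by fluorescence on NeuN, a nuclear protein of neurons in general; the labels name them medium spiny neurons. Their chromatin was precipitated with antibodies to H3K4me3, H3K27me3, H3K27ac and RNA polymerase II (Pol II) and sequenced, giving 1 library per antibody beside 1 of input. No treatment or genotype was compared, and the labels do not say how many mice were pooled. Each list gives regions within 3 kb of annotated start sites, with the authors' score over input, which begins at 2 in every list. There are no replicates, so no test across samples was possible and intervals cover counting error only. The files do not give read depth, so a gene without a region was not listed at this depth, which is not the same as unmarked.

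Skeletal muscle identity is set by 4 related basic helix-loop-helix factors, Myf5, MyoD (Myod1), myogenin (Myog) and MRF4 (Myf6), which bind E boxes in the promoters of contractile genes. These genes encode the sarcomere, in which myosin thick filaments pull on actin thin filaments under the control of troponin and calcium. H3K4me3 marks promoters, H3K27ac marks active promoters and enhancers, and H3K27me3 is laid down by Polycomb repressive complex 2, which keeps genes of other lineages silent. Promoters with both H3K4me3 and H3K27me3 are called bivalent. Marks listed together at 1 gene in a pool of nuclei may sit in the same or in different nuclei, which cannot be told apart here.

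Marker genes of neurons and of smooth muscle and mural cells were looked up. The lists were chosen with earlier results of these data known and hold no markers of glia, so they are a limited check of the sort. All 10 neuronal and striatal markers, among them Rbfox3 (which encodes NeuN), Ppp1r1b and Drd2, had H3K4me3 and H3K27ac regions, and 9 of 10 had Pol II. H3K27me3 was listed at 3 of the 10, Drd2 (4.53, 54.2 kb), Adora2a (5.89, 94.5 kb) and Elavl4 (6.18, 63.1 kb), of which Elavl4 had no Pol II. Of 13 smooth muscle and mural cell markers, the muscle-like cells of brain vessels, none had H3K27ac or Pol II (exact 95% interval up to 24.7%). H3K27me3 was listed at 11 of the 13 and H3K4me3 at 8. Of all coding genes, 68.4% had H3K4me3, 42.5% H3K27me3, 51.5% H3K27ac and 41.7% Pol II. Acta2 had an H3K4me3 score of 2.16 and an H3K27me3 score of 5.21, and Tagln had no region. The part of other cell types in the values of the muscle genes was not tested.

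Most muscle genes were listed for H3K27me3 and few for the marks of active promoters. H3K27me3 was listed at 29 of 41 (70.7%, exact 95% interval 54.5% to 83.9%), against 42.5% of all coding genes. H3K4me3 was listed at 12 of 41 (29.3%, 16.1% to 45.5%), against 68.4%. H3K27ac was listed at 8 of 41 (19.5%, 8.82% to 34.9%), against 51.5%. Pol II was listed at 4 of 41 (9.76%, 2.72% to 23.1%), against 41.7%. The muscle genes thus stood above all coding genes in H3K27me3 and below them in the other 3 lists. Genes that share a region are not independent, which these intervals do not take in.

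The commonest state was H3K27me3 with no other mark, at 24 of 41 genes (58.5%, 42.1% to 73.7%), against 18.2% of coding genes. H3K4me3 together with H3K27me3 was listed at 5 (12.2%, 4.08% to 26.2%), against 24.2%. These were Myod1, Tnnc2, Myl4, Tnnc1 and Mybpc2. No region was listed for 4 (9.76%, against 13.3%), namely Myog, Tnnt1, Tnni1 and Myom2. The slow skeletal troponins Tnnt1 and Tnni1 were both among them. H3K4me3 alone was listed at Tnni3, Des and Casq2, H3K4me3 with H3K27ac at Myl7 and Ryr1, and these with Pol II at Mylpf and Acta1. Myh7 alone had H3K27ac without H3K4me3, a state seen at 0.0903% of coding genes (19 genes in all).

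**Figure D1:**
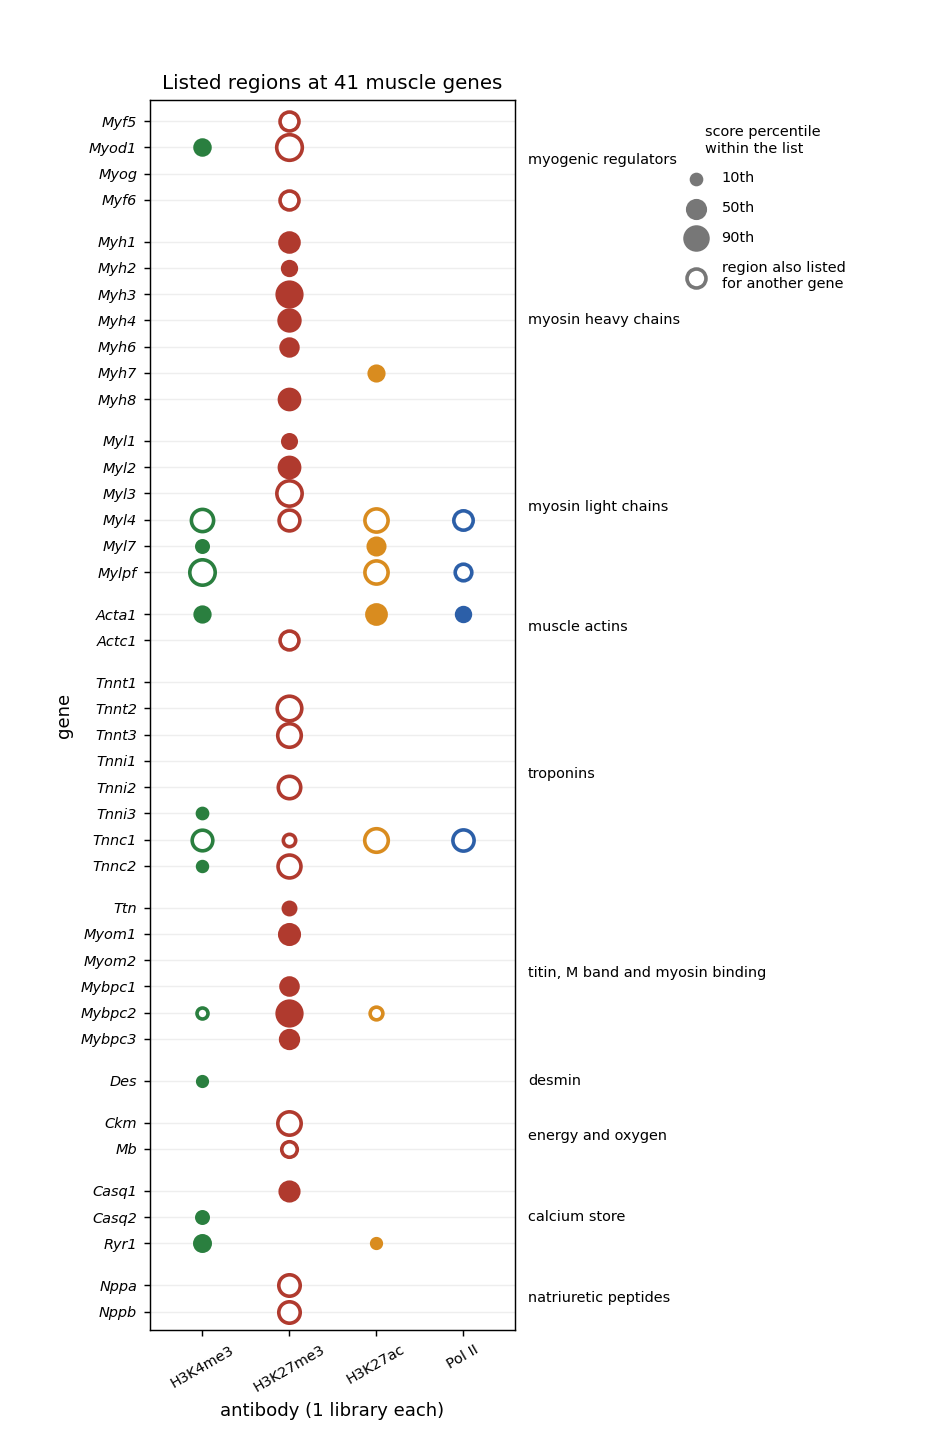
Listed regions at each of the 41 muscle genes (rows, grouped by role) for the 4 antibodies (columns, 1 library each). Circle size is the percentile of the region's score within its own list, and open circles are regions also listed for another gene; the H3K27me3 column holds 29 circles and the Pol II column 4.

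The regions were also weak or strong to different degrees against the rest of their list. For H3K4me3, the median percentile of the members' scores was 8.16, with a median score of 2.70 against 7.05 for the list. Only Myl4, Mylpf and Tnnc1 of the 12 lay above the median of the list, and the regions of all 3 were also listed for a neighbouring gene. The 8 members with an H3K4me3 region of their own had percentiles from 1.73 to 26.3. For H3K27me3, members and list were close, with median scores of 3.44 and 3.24 and a median percentile of 55.4. Their H3K27me3 regions had a median width of 14.9 kb against 12.4 kb. A region over 20 kb was listed at 13 of 29 genes (44.8%). Of the regions in the list, 33.9% were over 20 kb, a share of regions and not of genes. Counted per gene with regions of at most 20 kb only, H3K27me3 went from 70.7% to 39.0% of members and from 42.5% to 25.1% of coding genes.

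The promoters of 6 members are shown because they cover the range of states: 1 actin with active marks (Acta1), its cardiac relative with H3K27me3 alone (Actc1), 1 light chain with all 4 regions (Myl4), 1 with one of the highest-scoring H3K27me3 regions (Myl3), and a myogenic regulator with H3K27me3 alone (Myf5) or with no region (Myog). Each line gives the 250 bases before the RefSeq start site on the gene's strand, 5′ to 3′, in build GRCm38.p6, with CG pairs in capitals. The region lists are in mm9, so these positions and those of the regions are not on the same scale.
Acta1 (chr8:123894776-123895025, minus strand): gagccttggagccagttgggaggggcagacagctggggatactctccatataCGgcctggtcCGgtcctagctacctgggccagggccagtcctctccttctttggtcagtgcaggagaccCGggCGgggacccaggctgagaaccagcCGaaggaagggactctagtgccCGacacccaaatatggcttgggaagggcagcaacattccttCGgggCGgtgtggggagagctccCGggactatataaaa
Actc1 (chr2:114052876-114053125, minus strand): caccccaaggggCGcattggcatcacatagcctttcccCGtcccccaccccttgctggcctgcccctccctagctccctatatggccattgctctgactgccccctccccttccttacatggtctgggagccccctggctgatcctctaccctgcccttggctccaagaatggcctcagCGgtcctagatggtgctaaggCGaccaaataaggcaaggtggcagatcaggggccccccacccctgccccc
Myl4 (chr11:104550413-104550662, plus strand): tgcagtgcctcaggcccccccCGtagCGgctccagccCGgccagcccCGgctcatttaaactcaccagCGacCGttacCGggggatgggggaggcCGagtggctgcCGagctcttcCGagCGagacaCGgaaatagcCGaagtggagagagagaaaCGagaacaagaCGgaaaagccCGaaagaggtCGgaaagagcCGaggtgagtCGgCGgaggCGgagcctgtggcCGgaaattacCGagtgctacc
Myl3 (chr9:110763428-110763677, plus strand): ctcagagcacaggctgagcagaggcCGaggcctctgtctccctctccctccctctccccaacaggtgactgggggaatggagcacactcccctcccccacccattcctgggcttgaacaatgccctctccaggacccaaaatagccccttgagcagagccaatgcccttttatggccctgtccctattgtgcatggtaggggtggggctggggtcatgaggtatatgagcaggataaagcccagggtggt
Myf5 (chr10:107486135-107486384, minus strand): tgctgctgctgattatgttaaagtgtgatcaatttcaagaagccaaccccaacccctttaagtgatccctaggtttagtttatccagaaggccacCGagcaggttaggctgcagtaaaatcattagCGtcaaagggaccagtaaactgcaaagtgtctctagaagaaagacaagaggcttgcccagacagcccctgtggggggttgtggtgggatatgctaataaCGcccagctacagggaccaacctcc
Myog (chr1:134289754-134290003, plus strand): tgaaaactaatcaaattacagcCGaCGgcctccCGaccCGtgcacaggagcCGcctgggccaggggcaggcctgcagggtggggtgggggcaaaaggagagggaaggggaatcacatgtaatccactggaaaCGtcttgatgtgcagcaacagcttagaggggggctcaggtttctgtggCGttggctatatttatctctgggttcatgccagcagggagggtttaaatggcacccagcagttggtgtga
The stretch from Myl4 held 23 CG pairs, that from Acta1 9, from Myog 7, from Actc1 4, from Myf5 3 and from Myl3 1.

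The 4 myogenic regulators did not share a state. Myod1 had H3K27me3 and H3K4me3, Myf5 and Myf6 had H3K27me3 alone, and Myog had no region. Myod1, the factor that can turn fibroblasts into muscle, lay in the highest-scoring and widest H3K27me3 region of all members, at chr7:53576801-53649100 (score 10.99, 72.3 kb, percentile 97.8). Its H3K4me3 region, at chr7:53629301-53636100 (score 4.79, 6.8 kb, percentile 23.9), lay wholly inside it. No H3K27ac or Pol II was listed at Myod1. The same H3K27me3 region was listed for Kcnc1, the gene of a fast voltage-gated potassium channel of neurons. The H3K4me3 region of Kcnc1 (score 11.001, 10.1 kb) began 300 bp past the end of the H3K27me3 region, its H3K27ac region (6.52) 500 bp past it and its Pol II region (3.27) 600 bp past it. The listed H3K27me3 region thus ended just short of the H3K4me3, H3K27ac and Pol II regions of Kcnc1. The rule that set the ends of regions is not given, so these gaps do not fix a border between the genes.

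Myf5, the first of the regulators to come on in the embryo, and Myf6, which acts late in muscle differentiation, are neighbours and shared 1 H3K27me3 region. It lay at chr10:106919901-106933400 with a score of 3.14, a width of 13.5 kb and a percentile of 47.0, and neither gene had another mark. Myog, which drives the fusion and differentiation of myoblasts, had no region in any list. Its neighbour Adora1, a receptor for adenosine, was listed for H3K4me3, H3K27ac and Pol II, and its other neighbour Ppfia4 had no region.

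Myosin heavy chains, the motors of the thick filament, were listed almost throughout for H3K27me3 alone. H3K27me3 was the only mark at 6 of 7, against 18.2% of coding genes. None had H3K4me3 or Pol II, against 68.4% and 41.7%. Embryonic Myh3 had the highest score and width (6.82, 34.5 kb, percentile 89.0). The adult fast chains Myh4 (3.62, 32.2 kb), Myh1 (3.15, 12.2 kb) and Myh2 (2.37, 10.6 kb) and perinatal Myh8 (3.43, 24.7 kb) were lower in score. Each of these 5 had a region of its own, although the genes stand side by side on chromosome 11. With Myh13, the extraocular chain, which is not among the 41 genes (4.33, 74.5 kb), 6 separate H3K27me3 regions covered 188.7 kb of a span of 298.4 kb (63.2%). The gaps between them measured 57.4, 20.2, 28.5, 1.2 and 2.4 kb, and the 6 genes had no H3K4me3, H3K27ac or Pol II region. Each list gives only regions within 3 kb of annotated start sites, so H3K27me3 elsewhere in the gaps would not be listed.

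**Figure D2:**
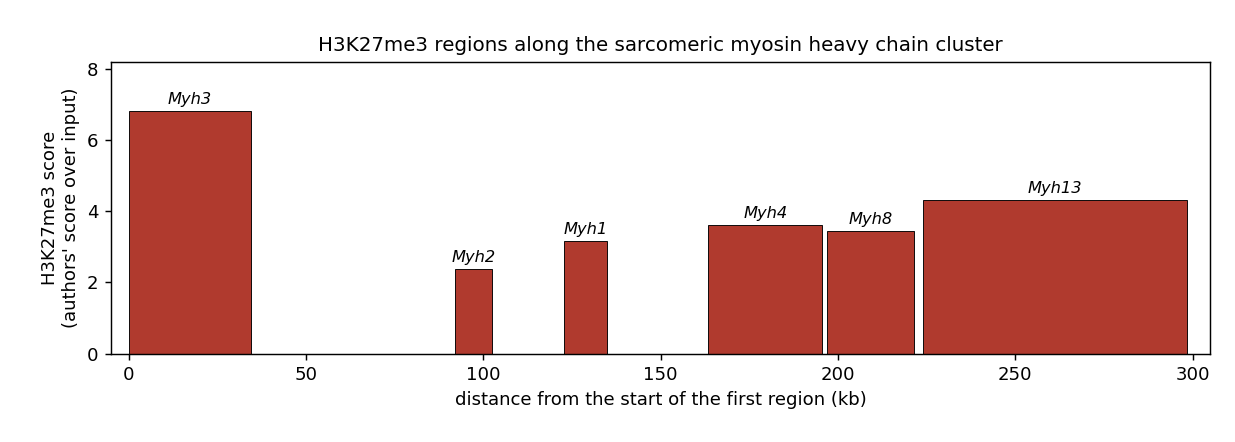
H3K27me3 regions of the myosin heavy chain cluster, drawn to scale by distance from the start of the first region (kb), with the authors' score as height. Myh3 stands highest at 6.82, and Myh4, Myh8 and Myh13 lie 1.2 and 2.4 kb apart, whereas Myh2 and Myh1 have narrow regions with wider gaps. Regions away from start sites are not listed, so a gap may hold H3K27me3.

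The cardiac heavy chains, a neighbouring pair, did not share a state. Myh6, the fast chain of the heart, had H3K27me3 alone at chr14:55578801-55590000 (score 2.77, 11.2 kb). Myh7, the slow chain of heart and slow skeletal fibres, had H3K27ac alone at chr14:55611401-55616800 (score 2.92, 5.4 kb, percentile 22.1). The regions were 21.4 kb apart. The H3K27ac region at Myh7 was listed for no other gene.

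Myosin light chains, which stiffen the lever arm of the motor, had H3K27me3 at 4 of 6, H3K4me3 at 3, H3K27ac at 3 and Pol II at 2. The shares of all coding genes were 42.5%, 68.4%, 51.5% and 41.7%. The light chains were thus near coding genes in H3K27ac (50%) and not far below them in Pol II (33.3%). Myl1 (2.34, 4.6 kb), Myl2 (3.45, 23.5 kb) and Myl3 (8.78, 61.4 kb, percentile 95.01) had H3K27me3 alone. The Myl3 region, at chr9:110628601-110690000, was also listed for Pth1r, a hormone receptor gene that had an H3K4me3 region of its own (5.76). The promoter of Myl3 shown above held 1 CG pair. Myl7, an atrial chain, had its own H3K4me3 (2.70, percentile 8.16) and H3K27ac (3.30, percentile 32.1) regions.

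Myl4 and Mylpf carried the highest H3K4me3 and H3K27ac scores of the 6 light chains, in regions that were also listed for another gene. Mylpf, the regulatory chain of fast fibres, had H3K4me3 at 11.8 (percentile 96.0), H3K27ac at 5.82 and Pol II at 2.502, and all 3 regions were also listed for Tbc1d10b. Myl4, the atrial and embryonic chain, had H3K4me3 at 8.55 (percentile 70.2), H3K27me3 at 3.64, H3K27ac at 5.83 and Pol II at 2.78. All 4 regions at Myl4 were also listed for Cdc27, a subunit of the anaphase-promoting complex. To which of the 2 genes such a region belongs cannot be told apart from the lists.

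The 2 muscle actins differed. Acta1, the thin-filament actin of skeletal muscle, had H3K4me3 at chr8:126413601-126419200 (score 4.65, 5.6 kb, percentile 22.7), H3K27ac (3.98, percentile 48.6) and Pol II (2.27, percentile 18.4). It had no H3K27me3 region, and it was the only member whose Pol II region was listed for no other gene. The H3K4me3 region of Nup133, the next coding gene on the higher-coordinate side of Acta1, was 51.1 kb away. Ccsap, the next coding gene on the other side, was also listed for H3K4me3, H3K27ac and Pol II. The distance to its regions was not measured. Actc1, the cardiac actin, had H3K27me3 alone (3.12, 13.7 kb, percentile 46.6). The cytoplasmic actins Actb (H3K4me3 9.10, H3K27ac 6.94, Pol II 5.89) and Actg1 (10.6, 10.8 and 4.24) scored higher than Acta1 in each of the 3 lists.

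Troponins, the calcium switch of the thin filament, had H3K27me3 at 5 of 8, H3K4me3 at 3, and no region at 2. The shares of all coding genes were 42.5%, 68.4% and 13.3%. Fast skeletal Tnnt3 (5.29, 61.2 kb) and Tnni2 (4.35, 34.3 kb) had H3K27me3 alone, in regions 20.3 kb apart. Cardiac Tnnt2 had 2 H3K27me3 regions, 1 with the higher score (6.80, 29.7 kb, also listed for Lad1) and 1 wider (4.19, 65.1 kb), with a gap of 0.9 kb. Slow Tnnt1 and Tnni1 had none. Cardiac Tnni3, which lies beside Tnnt1, had 2 weak H3K4me3 regions (2.13 and 2.22) 1.1 kb apart.

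The 2 calcium-binding subunits had both H3K4me3 and H3K27me3. Tnnc2, the fast subunit, had H3K27me3 at 4.68 (12.4 kb) and H3K4me3 at 2.16 (percentile 2.49). The regions overlapped over 3200 bp, 72.7% of the H3K4me3 region. Tnnc1, the slow and cardiac subunit, had H3K4me3 at 7.65, H3K27ac at 6.15, Pol II at 3.06 and H3K27me3 at 2.24. All of these were also listed for Nisch, and the H3K27me3 region began 300 bp beyond the end of the H3K4me3 region. The pair of marks at Tnnc1 was thus side by side and not overlapping.

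The overlap differed across the 5 genes with both marks. At Myod1 the H3K4me3 region lay inside the H3K27me3 region (6800 bp, 100%). At Mybpc2 the overlap was 1700 bp (35.4%) and at Myl4 1600 bp (26.2%). When an overlap of at least 0.5 of the narrower region was asked for, 2 genes remained, Myod1 and Tnnc2.

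Titin, M-band and myosin-binding genes hold the sarcomere in register. Ttn, the giant spring, had an H3K27me3 region among the weakest and narrowest of the members (2.24, 4.6 kb, percentile 11.9). Myom1 (3.27, 16.1 kb), Mybpc1 (2.79, 8.6 kb) and cardiac Mybpc3 (2.90, 9.2 kb) had H3K27me3 alone, and Myom2 had no region. Fast Mybpc2 had H3K27me3 at 7.03 (22.8 kb, percentile 89.7) in a region of its own. Its H3K4me3 (2.52) and H3K27ac (2.58) regions were also listed for Spib.

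Among the 8 other genes, H3K27me3 was listed at 5, H3K4me3 at 3 and H3K27ac at 1. The shares of all coding genes were 42.5%, 68.4% and 51.5%. Des, which encodes the intermediate filament desmin, had H3K4me3 alone, with the lowest H3K4me3 score of any member (2.11, 2.6 kb, percentile 1.73). Ckm, muscle creatine kinase, had H3K27me3 at 5.06 (20.6 kb, also listed for Klc3), and Mb, myoglobin, at 2.59 (11.5 kb, also listed for Apol6). Of the calcium-store genes, Casq1 had H3K27me3 alone (3.06, 8.6 kb) and Casq2 H3K4me3 alone (2.69). Ryr1, the calcium release channel of skeletal muscle, had H3K4me3 (5.06, percentile 26.3) and H3K27ac (2.07, percentile 1.87). Nppa and Nppb, hormones of the heart, shared 1 H3K27me3 region at chr4:147352801-147376200 (3.87, 23.4 kb, percentile 64.3).

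How often a mark was listed did not separate regulators from contractile genes. H3K27me3 was listed at 3 of 4 regulators and 21 of 29 contractile genes (72.4%, exact 95% interval 52.8% to 87.3%), against 42.5% of coding genes. H3K4me3 was listed at 1 of 4 and 8 of 29 (27.6%, 12.7% to 47.2%), against 68.4%. H3K27ac was listed at 0 of 4 and 7 of 29 (24.1%, 10.3% to 43.5%), against 51.5%. Pol II was listed at 0 of 4 and 4 of 29 (13.8%, 3.89% to 31.7%), against 41.7%. The exact upper limit for 0 of 4 is 60.2%, so these counts do not separate the groups. The H3K27me3 difference changed sign when genes that share a region, as Myf5 and Myf6 do, were counted once. The regulators ran from Myod1 at 72.3 kb to Myog with no region. Among contractile genes, 3 of 29 also had no region, and the H3K27me3 widths ran from 4.6 to 65.1 kb.

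**Figure D3:**
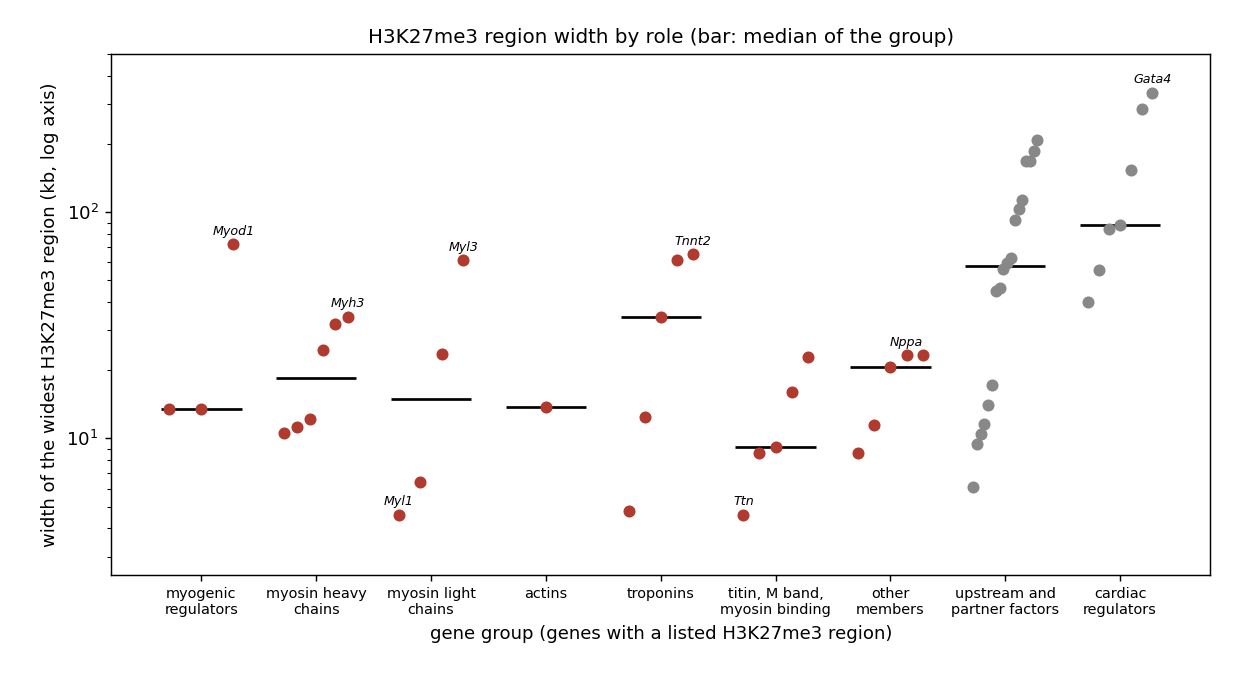
Width of the widest H3K27me3 region of each gene that has one (kb, log axis), by role, with the median as a bar; grey points are upstream and cardiac factors that are not among the 41 genes. The regulators run from 13.5 to 72.3 kb, and the cardiac regulators from 40 to 337.4 kb.

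The factors that act before or beside the myogenic regulators had H3K27me3 about as often as the muscle genes, but H3K4me3 more often. Of 25 upstream and partner factors, 23 had H3K4me3 (92%, against 68.4% of coding genes) and 18 had H3K27me3 (72%, against 42.5%). Both were listed at 17, against 24.2% of coding genes. The factors had a median H3K27me3 score of 8.11 and width of 58 kb, against 3.43 and 13.7 kb for the muscle genes counted per gene. H3K27ac was listed at 11 (44%, against 51.5%) and Pol II at 12 (48%, against 41.7%). The highest H3K27ac scores were at Srf (11.04), Mef2a (9.70), Mef2d (8.82) and Mkl2 (6.54), which also act in neurons. Pax3 (11.05, 185.6 kb), Pax7 (11.3, 167.6 kb) and Six4 (8.50, 44.8 kb), which specify muscle precursors, had H3K27me3 and H3K4me3 and no H3K27ac, and of them Pax7 had Pol II (2.01). Mef2c had no region. All 7 cardiac regulators, among them Gata4 (14.3, 337.4 kb) and Tbx5 (11.9, 286.1 kb), had both H3K4me3 and H3K27me3, against 24.2% of coding genes. None had H3K27ac, and only Gata6 had Pol II (score 2.26), against 51.5% and 41.7% of coding genes. Of the 41 muscle genes, Myod1 was the only one within the range of the cardiac regulators in both H3K27me3 score (10.4 to 14.3) and width.

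A list of 37 other sarcomere and muscle genes was set beside the 41. H3K27me3 was listed at 21 (56.8%, exact 95% interval 39.5% to 72.9%), an interval that takes in the 42.5% of coding genes. H3K4me3 was listed at 13 (35.1%), H3K27ac at 10 (27.03%) and Pol II at 5 (13.5%), below the shares of coding genes (68.4%, 51.5% and 41.7%). H3K27me3 alone was listed at 16 of the 37, against 18.2% of coding genes, and no region at 8, against 13.3%. The median H3K27me3 score was 3.31 and the median width 14.8 kb. Pol II was listed at Nebl (3.83), Actn2 (3.11), Eno3 (3.25), Jph1 (2.41) and Myoz3 (3.99). H3K27ac scored highest at Nebl (7.63), Eno3 (6.32), Jph1 (4.89) and Actn2 (4.17). Neb, Ldb3 and Myoz2, genes of the thin filament or Z disc, had no H3K27ac.

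Related genes with uses outside striated muscle, some of which also serve muscle, often carried the marks that most of the muscle genes lacked. Among 23 such paralogues, H3K4me3 was listed at 21 (91.3%, against 68.4% of coding genes) and H3K27ac at 19 (82.6%, against 51.5%). Pol II was listed at 18 (78.3%, against 41.7%) and H3K27me3 at 5 (21.7%, against 42.5%). Myl6 and Myl6b had the same scores and widths in H3K4me3, H3K27ac and Pol II. How many genes of the comparison lists share a region was not counted. Atp2a2 (H3K27ac 11.2), Actg1 (10.8), Ckb (9.61) and Myh10 (9.61), a nonmuscle myosin heavy chain, had the highest H3K27ac scores. Myh14, Tpm3, Ryr3 and Vim had no H3K27ac. The calcium channel genes differed, since Ryr2 had H3K4me3 at 9.18, H3K27ac at 6.24 and Pol II at 2.82, Ryr1 had 5.06, 2.07 and no Pol II, and Ryr3 had no region. Ckb, brain creatine kinase, had H3K4me3 at 12.8 and Pol II at 6.04, whereas Ckm had H3K27me3 alone.

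**Figure D4:**
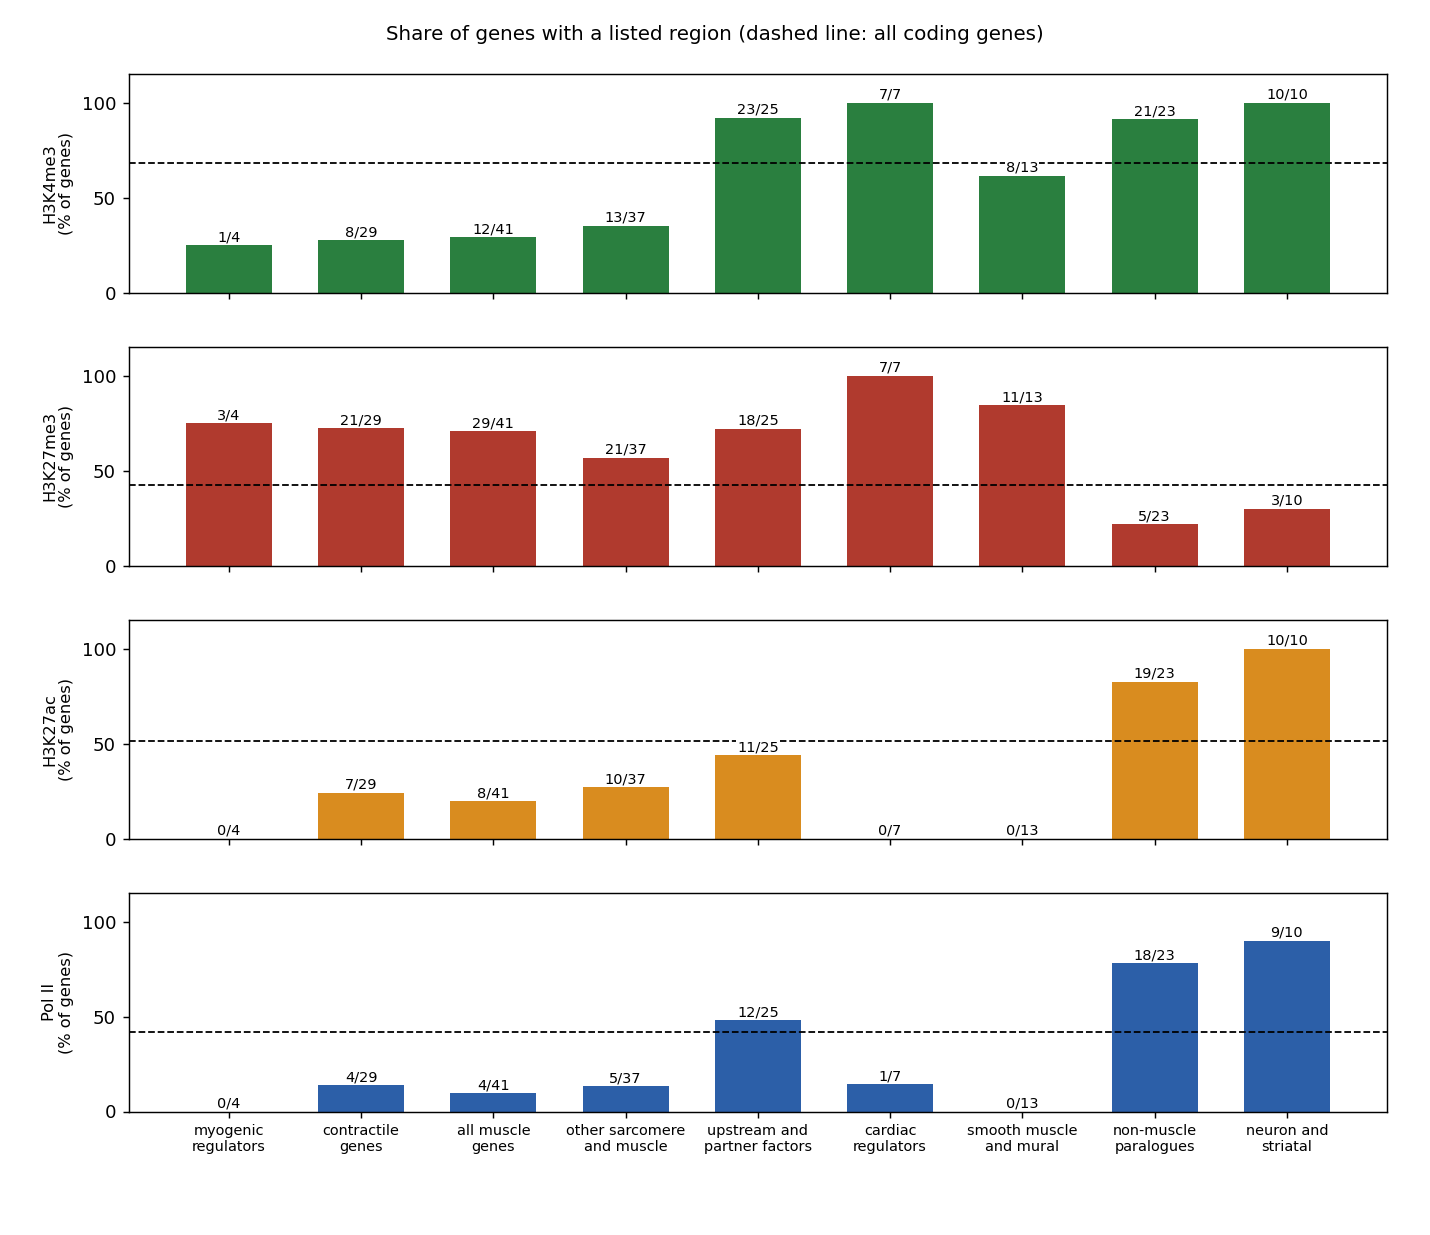
Share of genes with a listed region (% of genes) for each antibody, by gene list, with the number of genes over each bar and the share of all coding genes as a dashed line. The 41 muscle genes lie above the line for H3K27me3 and below it for the other 3 antibodies, while paralogues and neuronal genes lie on the other side of it.

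Many regions at the muscle genes were also listed for a neighbour. Of 29 genes with H3K27me3, 15 had a region listed for that gene alone, of 12 with H3K4me3 8, of 8 with H3K27ac 4 and of 4 with Pol II 1. Shared regions were not particular to the muscle genes. Counting regions listed for 1 symbol only, coding genes fell from 68.4% to 50.6% in H3K4me3, from 51.5% to 37.8% in H3K27ac and from 41.7% to 29.7% in Pol II. The muscle genes fell from 29.3% to 19.5%, from 19.5% to 9.76% and from 9.76% to 2.44%. In the same count, H3K27me3 stood at 36.6% of the muscle genes and 29.0% of coding genes. The H3K27me3 difference of 7.63 points compares with 28.3 points in the lists as deposited. It was 14.0 points with the higher-scoring 50% of each list and 13.9 points with regions of at most 20 kb. No interval was taken for these smaller shares, so whether these differences exceed counting error was not tested.

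RefSeq gave a promoter window of 300 bases (250 before and 50 after the start) for 36 of 41 genes; Myod1, Myf6, Tnnt3, Tnni2 and Myom2 had none. CG pairs were few. The median was 5.5 per window (range 1 to 25), against 14 for 16853 coding genes, 20 for those with H3K4me3 and 3 for those without. Members with H3K4me3 had a median of 6 over 11 genes, and those with H3K27me3 alone a median of 5 over 21 genes. The highest numbers were at Myl4 (25), Acta1 (12), Des (11) and Mybpc1 (11). Tnnc1 and Mylpf had 1 and 2, with H3K4me3 scores of 7.65 and 11.8. The H3K4me3 regions of Myl4, Tnnc1 and Mylpf were also listed for a neighbouring gene, so they may belong to another promoter. Upstream and partner factors had a median of 22.5 over 14 genes.

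**Figure D5:**
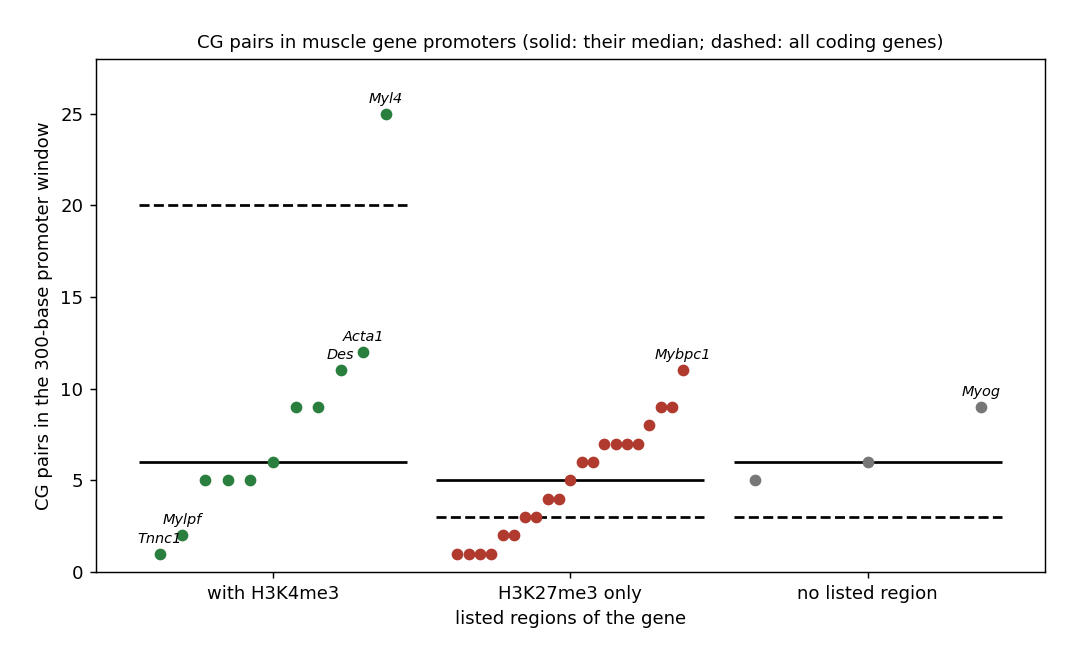
CG pairs in the 300-base promoter window of each muscle gene, by listed regions (Myh7, with H3K27ac alone and 5 pairs, is not drawn). Solid bars are the medians of the muscle genes (6, 5 and 6) and dashed bars those of all coding genes of the same state (20, 3 and 3).

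Motifs of muscle promoters were searched in the same windows on both strands. The E box CANNTG was found in 31 of 36 members (86.1%) and 68.5% of coding genes (79.2% of those without H3K4me3), and its form CAGCTG in 14 (38.9%) and 15.3% (16.3%). TATAAA was found in 13 (36.1%) and 13.2% (24.9%). A MEF2 site was found in 6 (16.7%) and 2.74% (5.13%), and a CArG box, the site of serum response factor, in 6 (16.7%) and 1.54% (2.01%). Most of the 36 members, 25, were without H3K4me3, and the share in parentheses after each value of coding genes is that of coding genes without it. Every CAGCTG is also counted as a CANNTG. Acta1 had a CArG box 73 bases and a CAGCTG 221 bases before the start, Actc1 a CArG box 47 bases and Myl3 a CArG box 85 bases before it. Myog had 2 E boxes, 138 and 12 bases before the start. TATAAA began 7 bases before the start in Acta1, and past the start in Actc1 and Myf5. All these distances are from the RefSeq start, which was not checked against measured start sites. Among members with H3K27me3 alone, TATAAA was found in 11 of 21 (52.4%), against 26.3% of coding genes in that state. These are matches of letters and not measured binding sites.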

How the data were processed

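Chromatin immunoprecipitation libraries for 4 antibodies and 1 input were analysed through the region lists the authors deposited, 1 list per antibody over input. Each line gives an mm9 region, the authors' score and a gene symbol with its transcript. The unit of the deposited values is the authors' score, whose scale is not given in the sources used here. Bowtie 0.12.7, MACS 1.4 and mm9 are named in the submitters' processing notes, with no role. The names of the lists give a window of 3 kb each side of the start site.

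Members were matched by symbol, and all coding genes by transcript to RefSeq's GRCm38.p6 gene table (0.341% of 56894 lines unmatched). A mark was assigned to any gene with 1 or more listed regions. The transcripts that were searched are not given, so a gene with no line counts as having no listed region. The highest score and the widest region were kept per gene. Percentiles are ranks of a score within its own list. Intervals are exact (Clopper-Pearson, 95%). With 1 library per antibody there was no test and no p-value. Promoter windows came from RefSeq (GRCm38.p6), the first listed window where a gene had several. Tables were handled in pandas 2.3.3 and numpy 2.4.6, intervals came from scipy 1.17.1 and plots from matplotlib 3.10.9, under Python 3.11.15. The counting was tested on simulated region lists.

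The members and the gene lists were chosen with earlier results of these data known. All 41 members were named. Of the other lists, genes with H3K27ac or Pol II were named where 8 or fewer, otherwise the 4 with the highest score and the first 4 without the mark. A few of the genes so chosen are not reported here. Actb, Ryr2, Mef2c, Gata4, Tbx5, Acta2 and Tagln, the neuronal examples and the neighbouring genes were named after their values were seen.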

Additional observations from a re-analysis of the deposited data

How the results depend on the processing

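Of 68 alternative values, 4 changed sign and 22 moved past the limit set for a count or a share; the other 42 did neither, although some of these also changed in size. The members' shares stayed above all coding genes for H3K27me3 and below them for H3K4me3, H3K27ac and Pol II in each alternative run. Counting error was not worked out for the shares in these runs. Keeping only the 50% of regions with the higher scores, H3K27me3 was listed at 16 members, H3K4me3 at 3, H3K27ac at 3 and Pol II at 1, H3K27me3 alone at 15, both H3K4me3 and H3K27me3 at 1 and no region at 23. With lists cut to the same length (7799 regions), H3K4me3 was listed at 3, both marks at 2 and no region at 8. With regions listed for 1 symbol only, H3K27me3 was listed at 15, H3K27ac at 4, Pol II at 1, H3K27me3 alone at 15, both marks at 0 and no region at 17, and the H3K27me3 difference from coding genes went from 28.3 to 7.63 points. That difference was 14.0 points with the higher-scoring regions and 13.9 with regions of at most 20 kb. With regions of at most 20 kb, H3K27me3 was listed at 16, H3K27me3 alone at 13, both marks at 3 and no region at 15. Asking for an overlap of 0.5 left both marks at 2. The cause of these changes was not tested. The difference between regulators and contractile genes in H3K27me3 (2.59 points) became -5.75 with genes of a shared region counted once, -48.3 with regions of 1 symbol only and -16.4 with the higher-scoring 50%, and that in H3K4me3 (-2.59) became 11.2 with regions of 1 symbol only. The latter was -10.3 with the higher-scoring regions and with lists of the same length, and the H3K27ac difference (-24.1) was -10.3 with the higher-scoring regions and with regions of 1 symbol only. No paired analysis was possible because each antibody had 1 library.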
